A study of Rattus norvegicus with 14 samples.

Results

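The circadian clock genes described here are the 10 genes Arntl, Clock, Per1, Per2, Per3, Cry1, Cry2, Nr1d1, Nr1d2 and Dbp, of 14217 named genes on the array. They were chosen by name, and every probe set that the array's annotation pairs with exactly 1 symbol of this list was kept, which gave 18 probe sets. Arntl stands in the annotation under its other symbol, Bmal1, and was matched through its gene ID and synonym. It is called Bmal1 below. The RNA came from the left ventricle of male Wistar rats, 16 weeks after an injection into the tail vein. The 7 control animals were given saline and the 7 diabetic animals streptozotocin (STZ) at 60 mg/kg, a toxin of the insulin-producing beta cells. All animals were under halothane for the injection and were then kept in pairs under a fixed light and dark cycle. The labels do not state the hour at which each heart was taken. One text label of the diabetic samples names saline, against their titles and source, and the titles were followed. Each animal was measured on 1 Affymetrix Rat Genome 230 2.0 array. The spread between animals given below therefore holds the spread between arrays as well, and these cannot be told apart.

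The molecular clock is a transcriptional feedback loop that runs in nearly every cell, cardiomyocytes included. The proteins CLOCK and BMAL1 pair up and switch on the Per, Cry, Nr1d and Dbp genes through E-box sequences. PER and CRY proteins then return to block CLOCK and BMAL1, while the NR1D proteins (REV-ERB alpha and beta) silence the Bmal1 gene through ROR elements. In rodent hearts kept under light and dark, Nr1d1, Dbp and Per3 are high when Bmal1 is low, Per1 and Per2 follow somewhat later, and Cry1 later still. A heart sampled at a single hour therefore holds 1 point of this cycle.

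All levels are log2 of the scaled signal plus 50, after quantile normalisation. A probe set without signal would lie near 5.64 on this scale. Median deposited signal per array ran from 14.8 to 85.3. Its part in the precision of the values was not tested beyond leaving out the 3 dimmest arrays. The arrays fall into 3 classes by their control probe sets (poly-A spike-ins and the beta-actin 3' over 5' ratio). Class A holds 4 arrays, class B 4 and class C 6, each with as many control as diabetic animals. The labels do not say what these classes are. Control replicates 3 and 5 and diabetic replicate 1, the 3 dimmest arrays, are all in class C. The tissue label was checked on marker genes. Ventricular markers (4 of 5 measured, Actc1 not among them) averaged 14.84 to 15.01 per array, and fat cell and T cell markers lay between 6.07 and 6.94. The 4 atrial markers averaged 9.36 to 13.04 in control and 9.80 to 13.21 in diabetic arrays, with a median difference of 1.03 and 0 of 4 called by limma (1 at an unadjusted p under 0.05). Their mean correlated with the 10 clock genes by r from -0.55 (Cry2) to 0.16 (Cry1) over 14 arrays, with adjusted permutation p of 0.39 or more. The 3 macrophage markers had a median difference of 0.59, with 0 called by limma and 2 at an unadjusted p under 0.05 (Cd68 0.59 and Cd163 0.71), and their part in the clock gene values was not tested. In whole tissue, fewer cells of a type and less RNA per cell cannot be told apart.

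No clock gene differed between diabetic and control ventricles beyond the spread between animals. Of the 18 probe sets 0 passed limma at an adjusted p under 0.05, against 1.14% of all 31042 probe sets tested (0.619% higher and 0.522% lower in diabetic animals), and the smallest adjusted p was 0.363. At an unadjusted p under 0.05 there was 1, a probe set of Clock, beside 9.61% of all probe sets. In 18 of 18 the control and diabetic animals overlapped, while groups did not overlap in 1.2% of all probe sets. Diabetic means were higher for 13 probe sets and lower for 5. The median difference was 0.10 over the 18, and the median size of the difference was 0.18, beside 0.15 over all probe sets.

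**Figure D1:**
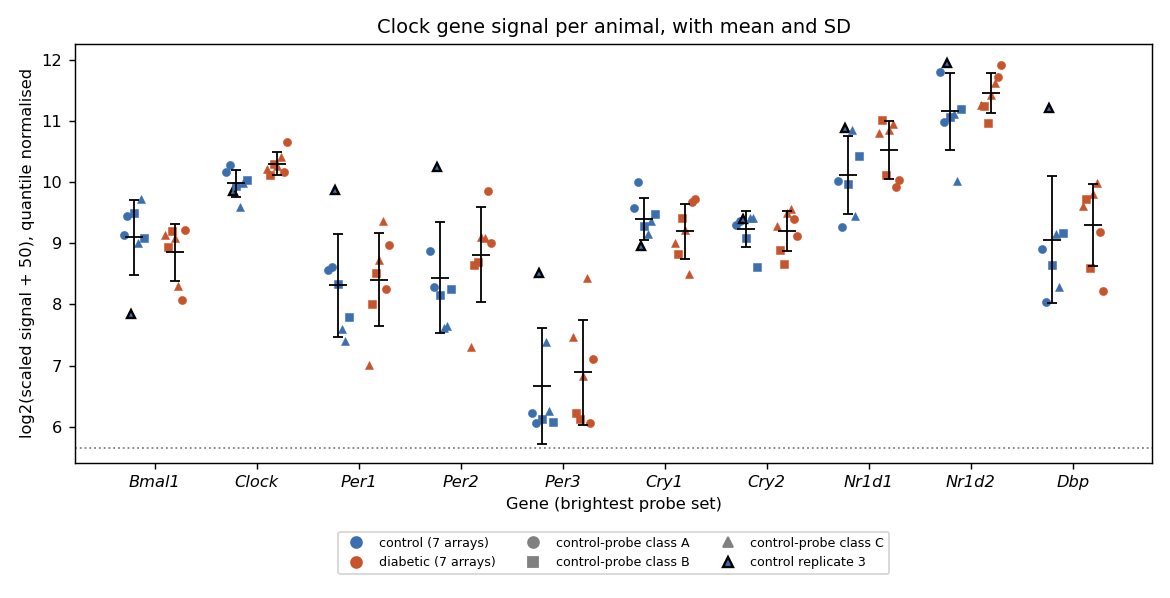
Signal of each clock gene in each animal, by its brightest probe set (y axis: log2 of scaled signal plus 50; dotted line: 5.64, the level of the offset alone). Points are arrays, horizontal bars means and vertical bars SD (n = 7 per group). The groups overlap for every gene, and control replicate 3 (black outline) is highest for Per1, Per2, Per3, Nr1d2 and Dbp and lowest for Bmal1.

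Bmal1, the partner of CLOCK and the member repressed by NR1D proteins, was measured by 1 probe set. Its log2 signal ran from 7.84 over a median of 9.13 to 9.72 in control animals. In diabetic animals it ran from 8.08 over 9.09 to 9.22. Control replicate 3 was the lowest of all, and diabetic replicates 6 (8.08) and 5 (8.30) came next, so low animals stood in both groups. The difference, diabetic minus control, was -0.25 ± 0.27 (SE, n = 7 per group, limma adjusted p = 0.851), with a 95% interval from -0.81 to 0.31. It was -0.46 without control replicate 3, -0.15 without control replicate 6, -0.16 without diabetic replicate 5 and -0.12 without diabetic replicate 6. The sequence around its RefSeq start is shown because it holds a match to the ROR element core TAGGTCA. That match, in capitals below, occurs in 2.63% of 33469 rat promoters of the same length on either strand.

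Bmal1 promoter (chr1:176766078-176766377, plus strand, GRCr8): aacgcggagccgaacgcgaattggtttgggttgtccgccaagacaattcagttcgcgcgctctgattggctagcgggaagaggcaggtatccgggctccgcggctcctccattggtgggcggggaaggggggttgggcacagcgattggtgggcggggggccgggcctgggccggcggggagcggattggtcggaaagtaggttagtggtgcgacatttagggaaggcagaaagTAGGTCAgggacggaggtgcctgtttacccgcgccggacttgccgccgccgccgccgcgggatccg

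Clock, the other activator and the member that cycles least in most tissues, was measured by 4 probe sets that did not all move together. The brightest ran from 9.59 over a median of 9.99 to 10.28 in control and from 10.11 over 10.27 to 10.66 in diabetic animals. Of the 7 diabetic animals 3 lay above all controls. It differed by 0.32 ± 0.13 (SE, n = 7 per group, limma adjusted p = 0.363), which is 1.25-fold with a 95% interval from 1.04 to 1.51. The other 3 probe sets differed by 0.04, 0.02 and -0.17, with limma adjusted p from 0.915 to 0.99. Over the 14 arrays the brightest pair of Clock probe sets correlated (r = 0.80, rho = 0.65, permutation p = 0.00179, adjusted p = 0.0107 over 12 pairs of probe sets of the same gene). Each of that pair correlated with the dimmer 2 by r between -0.32 and -0.22. The brightest probe set also correlated with the beta-actin 3' over 5' ratio of the array (r = 0.75, rho = 0.68, permutation p = 0.00192, adjusted p = 0.0576 over 30 relations). With that ratio as a covariate its difference was 0.30 (limma adjusted p = 0.239).

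The Per genes encode the PERIOD repressors, and Per1 also answers to glucocorticoids and to acute stimuli. Per1 ran from 7.41 over a median of 8.33 to 9.88 in control and from 7.01 over 8.51 to 9.36 in diabetic animals. Control replicate 3 was highest and diabetic replicate 1 lowest, a range of 7.32-fold. The group difference was 0.09 ± 0.38 (SE, n = 7 per group, limma adjusted p = 0.973), with an interval from 0.61-fold to 1.87-fold. So small a difference moved with single arrays, from -0.06 without diabetic replicate 5 to 0.36 without control replicate 3.

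Per2, by its brighter probe set, ran from 7.62 over 8.25 to 10.25 in control and from 7.31 over 9.01 to 9.86 in diabetic animals. The same animals stood at the ends as for Per1, control replicate 3 at the top and diabetic replicate 1 at the bottom. It differed by 0.38 ± 0.40 (SE, n = 7 per group, limma adjusted p = 0.851), with an interval from 0.722-fold to 2.33-fold. It was 0.68 without control replicate 3, 0.63 without diabetic replicate 1, and 0.20 without diabetic replicate 6. Its dimmer probe set lay at 6.37 on average, near the offset, and did not follow the brighter one (r = -0.45, rho = -0.33, permutation p = 0.163). The Per2 promoter is shown because it holds 2 of the motifs searched, in capitals. They are the D-box TTANGTAA, the site type bound by DBP (2.24% of promoters), and the E-box variant CACGTT (4.83%).

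Per2 promoter (chr9:99496944-99497243, minus strand, GRCr8): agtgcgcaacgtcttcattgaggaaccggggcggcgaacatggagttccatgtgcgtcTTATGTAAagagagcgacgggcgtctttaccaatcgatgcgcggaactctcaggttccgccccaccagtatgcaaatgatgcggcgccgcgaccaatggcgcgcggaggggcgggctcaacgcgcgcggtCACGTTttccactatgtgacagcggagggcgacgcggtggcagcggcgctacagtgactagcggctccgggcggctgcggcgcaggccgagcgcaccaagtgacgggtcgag

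Per3 was the dimmest clock gene, with means of 6.78 and 6.35 for its probe sets. By the brighter of these most animals lay near the offset and a few stood well above it. It ran from 6.06 over 6.23 to 8.52 in control and from 6.06 over 6.83 to 8.43 in diabetic animals. Control replicates 3 (8.52) and 5 (7.39) and diabetic replicates 5 (8.43), 1 (7.46) and 7 (7.10) were high. The difference was 0.23 ± 0.43 (SE, n = 7 per group, limma adjusted p = 0.931), and fold changes so near the offset are understated. It was 0.54 without control replicate 3 and -0.03 without diabetic replicate 5. Per3 averaged 7.48 in class C against 6.36 in class A and 6.14 in class B. It also correlated with the median signal of the array (r = -0.70, rho = -0.62, permutation p = 0.0103, adjusted p = 0.154). The part of class and brightness in the Per3 levels was not tested.

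Cry1 and Cry2 encode the cryptochromes, the partners of PER in repression. Cry1 ran from 8.95 over 9.36 to 10.01 in control and from 8.50 over 9.21 to 9.73 in diabetic animals. It differed by -0.20 ± 0.20 (SE, n = 7 per group, limma adjusted p = 0.84, interval 0.646 to 1.17-fold), and 2 diabetic animals lay below all controls. Without diabetic replicate 5 it was -0.09. Cry2, by its brighter probe set, differed by -0.03 ± 0.17 (adjusted p = 0.98, limma, n = 7 per group). It spanned 1.91-fold over all 14 animals, the narrowest range of the 10 genes. Both cryptochromes differed between the classes: Cry1 averaged 9.74 in class A, 9.25 in B and 9.03 in C. Cry2 averaged 9.30, 8.82 and 9.43.

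Nr1d1 and Nr1d2 encode REV-ERB alpha and beta, heme-binding nuclear receptors that repress Bmal1. Nr1d1 ran from 9.26 over 10.02 to 10.88 in control and from 9.92 over 10.80 to 11.01 in diabetic animals. Diabetic replicates 2 (11.01) and 5 (10.95) lay above all controls, and the other 5 lay within the control range. The difference was 0.40 ± 0.28 (SE, n = 7 per group, limma adjusted p = 0.719), the widest among the brightest probe sets of the 10 genes, with an interval from 0.88-fold to 1.98-fold. Within classes A, B and C it was 0.34, 0.35 and 0.47, and without control replicate 2 it was 0.25. Nr1d2, the brightest clock gene probe set, ran from 10.02 over 11.11 to 11.95 in control and from 10.97 over 11.43 to 11.92 in diabetic animals. It differed by 0.29 ± 0.25 (SE, n = 7 per group, limma adjusted p = 0.795), and by 0.10 without control replicate 6. Its second probe set gave 0.25 and followed it closely (r = 0.97, rho = 0.92, permutation p = 1e-05, the smallest the permutations can give). The third gave 0.11. Of the 2 Nr1d1 promoters in RefSeq, the downstream one is shown for its E-box CACGTG, in capitals, the site type bound by CLOCK and BMAL1 (6.42% of promoters). The upstream one holds CACGTT on the opposite strand, as does that of Cry2. Promoters were at hand for 9 of the 10 genes, not for Cry1, and those of Clock, Per1, Per3, Nr1d2 and Dbp held none of the 5 motifs searched in this window (the 4 above and a second ROR core, TGGGTCA, found in 4.09% of promoters).

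Nr1d1 downstream promoter (chr10:84229405-84229704, minus strand, GRCr8): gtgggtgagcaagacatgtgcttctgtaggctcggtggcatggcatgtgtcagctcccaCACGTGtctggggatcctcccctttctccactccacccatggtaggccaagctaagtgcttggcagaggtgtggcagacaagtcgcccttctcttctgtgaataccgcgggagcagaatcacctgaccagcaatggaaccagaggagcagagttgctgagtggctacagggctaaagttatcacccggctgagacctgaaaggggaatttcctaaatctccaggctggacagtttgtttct

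Dbp, a direct output of the clock that activates D-box genes, had the widest range of all members, 8.99-fold between single animals. It ran from 8.04 over 8.91 to 11.21 in control and from 8.22 over 9.61 to 9.98 in diabetic animals. Control replicate 3 stood more than 2 log2 units above the next control (9.17). The group difference was 0.24 ± 0.41 (SE, n = 7 per group, limma adjusted p = 0.918), with an interval from 0.644-fold to 2.18-fold. It was 0.60 without control replicate 3 and 0.08 without control replicate 2.

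**Figure D2:**
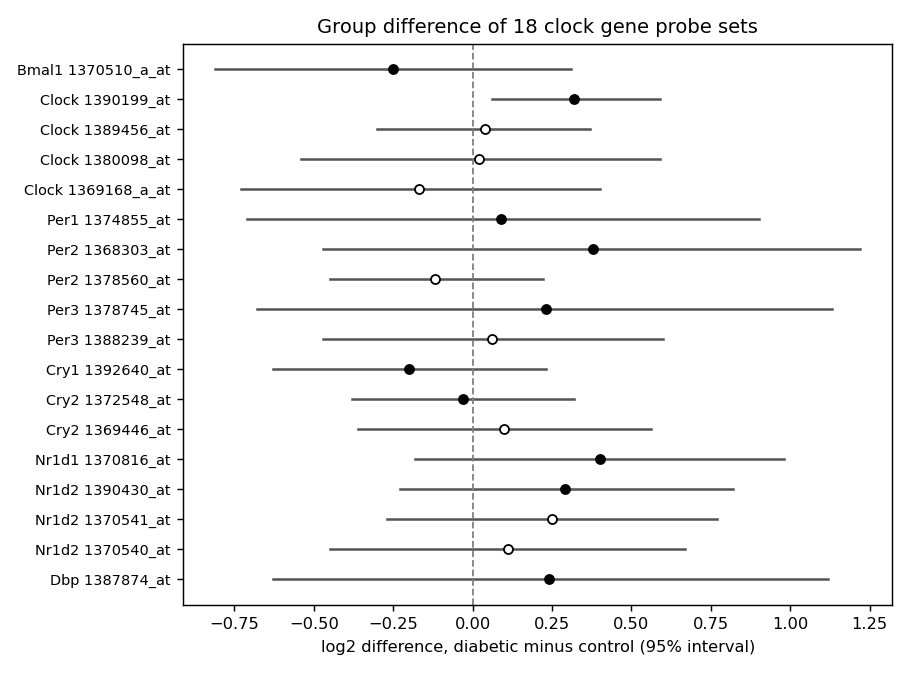
Difference of each of the 18 clock gene probe sets, diabetic minus control (x axis: log2), with 95% intervals from limma (n = 7 per group). Filled points are the brightest probe set of a gene. The intervals of 17 probe sets span 0, and that of the brightest Clock probe set runs from 0.06 to 0.59.

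The wide intervals follow from the spread between animals of the same group, which was large for most clock genes. The SD within groups was 0.87 for Dbp, 0.84 for Per2 and 0.80 for Per1. Of the 12661 probe sets with a mean signal of 8 or more, 99.7%, 99.5% and 99.4% varied less. For Nr1d1 (0.57), Bmal1 (0.54) and Nr1d2 (0.50) these shares were 96.2%, 95.6% and 93.9%. Cry1 (0.40) and Cry2 (0.31) were nearer the middle, at 85.0% and 66.9%, and Clock varied least (0.20, 28.4%). Per3, too dim for that set, had an SD of 0.90, above 99.7% of all probe sets. The median SD was 0.26 over the brighter probe sets. These SDs hold the spread between arrays as well. With class means removed the SD was 0.79 for Dbp, 0.88 for Per2, 0.85 for Per1, 0.67 for Per3 and 0.47 for Nr1d1. It was then 0.57 for Bmal1, 0.50 for Nr1d2, 0.26 for Cry1, 0.15 for Cry2 and 0.18 for Clock.

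**Figure D3:**
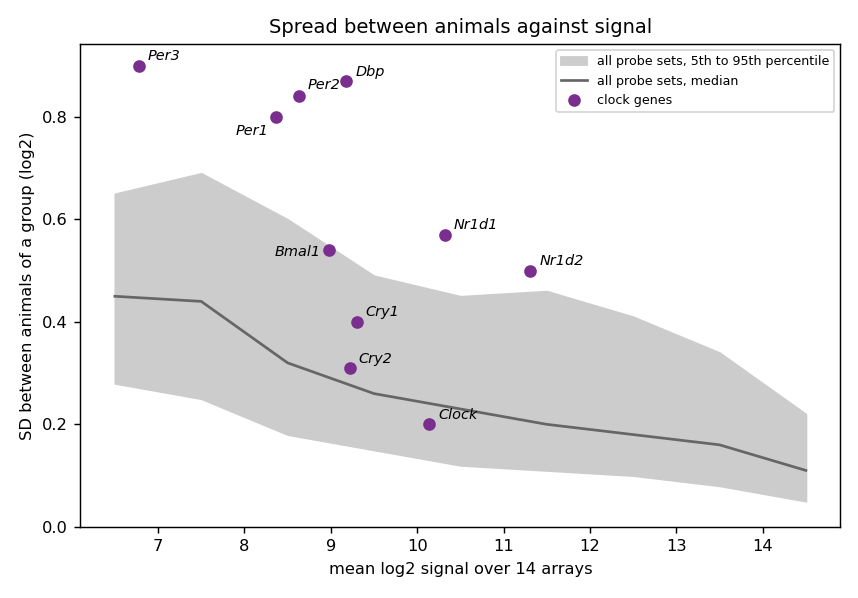
SD between animals of a group (y axis, log2) against mean log2 signal (x axis) for the 10 clock genes, over the range of all probe sets in steps of 1 log2 unit (grey band: 5th to 95th percentile; line: median). Dbp, Per1, Per2, Per3, Nr1d1 and Nr1d2 lie above the band, and Clock lies below the median line. The SD holds the spread between arrays as well.

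Phase relations between clock genes were read from single animals, as correlations of the deviations from the group mean over 14 arrays. All 45 pairs of the 10 genes were tested by shuffling animals within groups. Of these, 5 passed at an adjusted p under 0.05 (2 positive, 3 negative), and 14 had an unadjusted p under 0.05. By Spearman's rho 6 passed, 4 of them the same pairs. In each of the 5 pairs the sign was the same within control and within diabetic animals. Within a single group of 7, 0 pairs passed the exact test after adjustment, with 11 in control and 3 in diabetic animals at an unadjusted exact p under 0.05.

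Nr1d1 and Dbp rose and fell together (r = 0.82, rho = 0.85, permutation p = 3e-05, adjusted p = 0.00135). The r was 0.80 in control and 0.85 in diabetic animals (exact p = 0.00595 and 0.019, n = 7 each). Without control replicate 3 it was 0.85, and without the 2 animals farthest from the median in Nr1d1 it was 0.75. Of the brighter probe sets 0.111% had an r with Dbp as high as that of Nr1d1 or higher. With class means removed r was 0.75 (exact p = 0.108 over shuffles within group and class), and within class C, the only class of 6 arrays, it was 0.74.

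Cry1 ran opposite to both of these. With Nr1d1 it had r = -0.80 and rho = -0.80 (permutation p = 0.00063, adjusted p = 0.0142). The r was -0.77 in control and -0.90 in diabetic animals (exact p = 0.0393 and 0.00635, n = 7 each), and -0.76 without the 2 farthest animals. With Dbp it had r = -0.72 and rho = -0.77 (permutation p = 0.00382, adjusted p = 0.043), and -0.68 without the 2 farthest. As Cry1 and Nr1d1 also differed between the classes, class means were removed. The r then fell in size to -0.61 with Nr1d1 and -0.59 with Dbp (exact p = 0.0764 and 0.0226). The animals at the ends were control replicate 2, with high Cry1 (10.01) and low Nr1d1 (9.26) and Dbp (8.04), and diabetic replicate 5, with low Cry1 (8.50) and high Nr1d1 (10.95) and Dbp (9.98).

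Per1 and Per2 formed another pair (r = 0.83, rho = 0.78, permutation p = 0.00217, adjusted p = 0.0325). The r was 0.94 in control and 0.69 in diabetic animals (exact p = 0.00317 and 0.0988, n = 7 each). Without control replicate 3 and diabetic replicate 1, the farthest 2, it was 0.43, so the size of this relation rests on those animals. Without control replicate 3 alone r was 0.72, and with class means removed it was 0.83 (exact p = 0.104). Within class C it was 0.98, and over the 8 arrays outside class C it was 0.11. Nr1d2 went with Per1 (r = 0.64, rho = 0.61, permutation p = 0.0212, adjusted p = 0.0868) and Per2 (r = 0.69, rho = 0.71, permutation p = 0.0132, adjusted p = 0.0804), relations that did not pass. Per1 and Per2 had an r of 0.10 and 0.07 with Nr1d1, and Nr1d2 had 0.34 with Nr1d1 and 0.47 with Dbp. With class means removed some pairs of these genes were closer and others were not. Per1 and Per2 then had 0.28 and 0.36 with Nr1d1 (exact p = 0.67 and 0.46), and 0.62 and 0.65 with Nr1d2. Nr1d2 then had 0.84 with Nr1d1 (exact p = 0.00174, the smallest these shuffles can give) and 0.84 with Dbp (exact p = 0.0538). Per3 had 0.79 with Nr1d2 (exact p = 0.0104), and Per2 had 0.77 with Dbp (exact p = 0.0208). Without that removal, these pairs had 0.90, 0.95, 0.87 and 0.84 within class C, in the same order. Over the 8 arrays outside class C they had -0.08, 0.01, 0.57 and 0.10. Per3 and Dbp had a pooled r of 0.69 (rho = 0.43, permutation p = 0.0158, adjusted p = 0.0804). It was 0.21 without control replicate 3 and diabetic replicate 5, the farthest 2, and -0.49 over the 8 arrays outside class C. Diabetic replicate 1, the dimmest array, was lowest of all animals in Per1 (7.01) and Per2 (7.31), with Nr1d1 (10.80) and Dbp (9.61) at the median of its group.

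**Figure D4:**
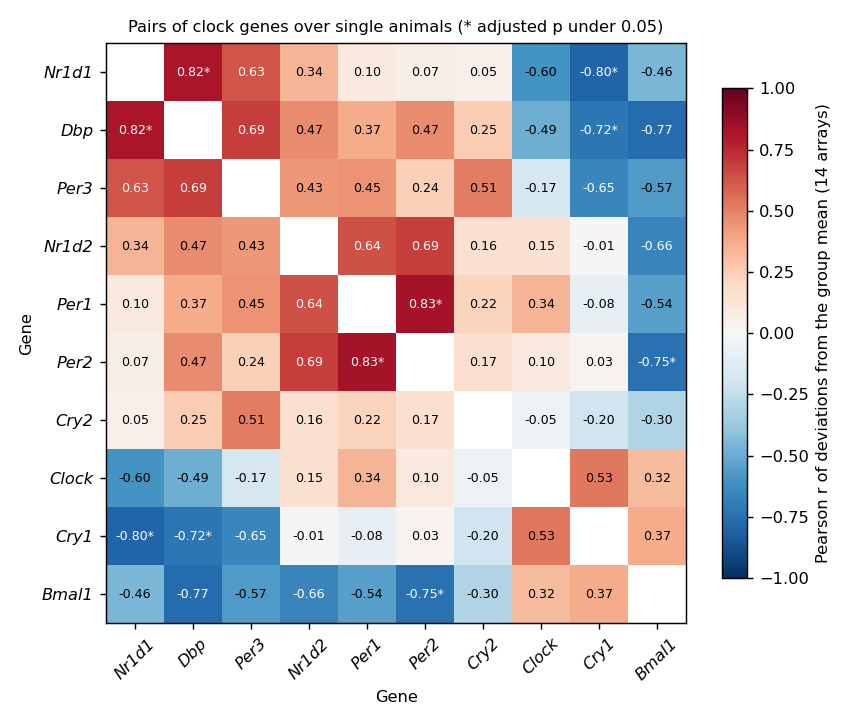
Pearson r between clock genes over 14 animals, after removal of the group means (colour and numbers; an asterisk marks an adjusted permutation p under 0.05 over 45 pairs). Nr1d1, Dbp and Per3 have r from 0.63 to 0.82 with each other, Nr1d2, Per1 and Per2 from 0.64 to 0.83, and Bmal1 is negative with all of these 6. The pattern is not the same with class means removed, where Nr1d1 and Nr1d2 have 0.84. That pair has 0.90 within class C and -0.08 outside it.

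Bmal1 had a negative r with Nr1d1, Nr1d2, Dbp and the 3 Per genes, of which that with Per2 passed the test. With Per2 it had r = -0.75 (rho = -0.50, permutation p = 0.00521 and 0.086, adjusted p = 0.0469 and 0.258). Without control replicate 3 r was -0.52. Without control replicate 3 and diabetic replicate 6, the 2 farthest, it was -0.29, so the size of the pooled r rests on those animals. With class means removed it was -0.81 (exact p = 0.0174). It was -0.82 within class C, which holds control replicate 3, and -0.81 outside it, where diabetic replicate 6 stands. With Dbp it had r = -0.77 (permutation p = 0.00748, adjusted p = 0.0561) and rho = -0.71 (permutation p = 0.00515, adjusted p = 0.0417). Of the brighter probe sets 0.0553% had an r with Bmal1 as low as that of Dbp or lower. The r with Dbp was -0.97 in control (exact p = 0.00357, n = 7) and -0.37 in diabetic animals (exact p = 0.427, n = 7). The difference between the groups was not tested. Without control replicate 3 the pooled r was -0.49, without the 2 farthest animals -0.70, and with class means removed -0.87 (exact p = 0.00174, the smallest these shuffles can give). With Nr1d1, the repressor of Bmal1, r was -0.46 and rho -0.62 (permutation p = 0.121 and 0.033, adjusted p = 0.273 and 0.165). It was -0.77 in control and 0.07 in diabetic animals (exact p = 0.0165 and 0.804, n = 7 each). The pooled r was -0.26 without control replicate 3 (permutation adjusted p = 0.731), -0.21 without the 3 dimmest arrays, and -0.72 without diabetic replicate 6 (permutation adjusted p = 0.0366). Diabetic replicate 6 joined the lowest diabetic Bmal1 (8.08) to the lowest diabetic Nr1d1 (9.92) and the highest diabetic Per2 (9.86). Bmal1 and Clock, the 2 activators, had r = 0.32 and rho = 0.38 (permutation p = 0.291, adjusted p = 0.473).

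**Figure D5:**
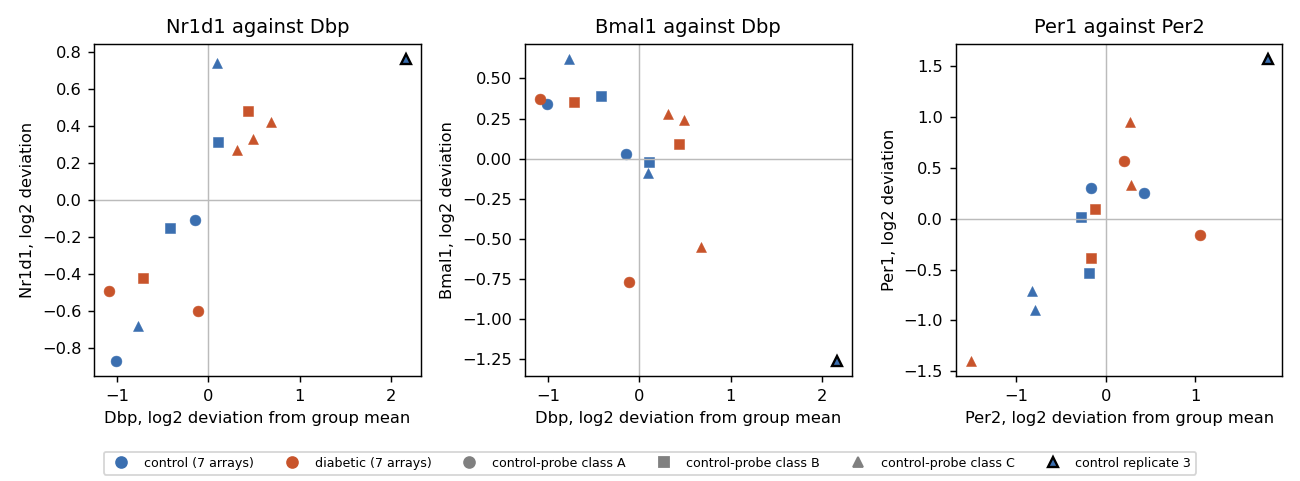
Deviations from the group mean (log2, both axes) of 14 animals for 3 pairs of clock genes; colours are groups, symbols the control-probe classes, and control replicate 3 has a black outline. Nr1d1 rises with Dbp without control replicate 3 as well (r = 0.85), Bmal1 falls with Dbp (-0.77, and -0.49 without that animal), and Per1 rises with Per2.

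Single animals at the ends of these genes are described next. No hour of sampling is known, so they were not placed in the cycle. Control replicate 3 lay 2.16 above its group mean in Dbp, 1.86 in Per3, 1.81 in Per2 and 1.57 in Per1, with a deviation of -1.26 in Bmal1. Control replicate 6 was opposite in several genes, with the highest Bmal1 (9.72), the lowest Nr1d2 (10.02) and low Dbp (8.28), Per1 (7.41) and Per2 (7.65). Its deviations in Cry1 (-0.04) and Cry2 (0.19) had the same sign as those of control replicate 3 (-0.45 and 0.17). Diabetic replicate 5 resembled control replicate 3 in part, with deviations of 1.54 in Per3, 0.95 in Per1 and 0.68 in Dbp, and of -0.69 in Cry1 and -0.55 in Bmal1. Its Per2 (0.27) and Nr1d2 (0.18) lay nearer the group mean than those of control replicate 3 (1.81 and 0.79). All 3 of these arrays belong to class C, and control replicate 3 is among the dimmest. Without the 3 dimmest arrays 0 of 45 pairs passed, with 7 at an unadjusted p under 0.05. The part of class and brightness was not tested beyond these values.

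Genes outside the 10 were ranked by their r with Bmal1 and with Dbp over the same 14 arrays, among 8136 genes with a mean of at least 8. Since they were picked for this value, it carries no p. The genes most like Dbp were Usp2, a ubiquitin protease known as a clock output (r = 0.90), Ppp2r5c, a phosphatase subunit (0.88), Bhlhe40, the clock repressor DEC1 (0.88), Mid1ip1 (0.86) and Klf9, a Kruppel-like factor (0.85). Without control replicate 3 these were 0.78, 0.85, 0.83, 0.75 and 0.61. None of the 5 was called between the groups (limma adjusted p from 0.849 to 0.974, n = 7 per group). The genes most like Bmal1 were Myl1, an alkali myosin light chain (0.80), Fubp1 (0.79), Trim2 (0.78), Pfkp, a phosphofructokinase (0.78), and C1r, a complement protease (0.76). These were, without control replicate 3, 0.82, 0.56, 0.45, 0.67 and 0.67. None of these 5 belongs to the lists of clock genes below.

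Other genes of the clock were not called either. Of 17 listed, 13 were measured, 0 were higher and 0 lower by limma over all probe sets, and 1 had an unadjusted p under 0.05 (median difference -0.09, beside 0.00 over all probe sets). The smallest p belonged to Btrc, which marks PER for destruction (0.33 ± 0.12, SE, n = 7 per group, limma adjusted p = 0.353), and Rorb (-0.32 ± 0.24, adjusted p = 0.748), which lay near the offset (mean 6.12). Of 16 genes listed as rhythmic outputs in many tissues or in heart, 14 were measured, 2 were higher, beside 0.619% of all probe sets, and 0 lower (median difference 0.14). At an unadjusted p under 0.05 there were 6 of 14, all higher, beside 9.61% of all probe sets. As the lists were chosen with earlier results of these data known, these shares are descriptions and no test of the list. The called genes were Pdk4, the kinase that inhibits pyruvate dehydrogenase, which rose 4.27-fold, and Ucp3, a mitochondrial carrier, which rose 3.99-fold (limma adjusted p = 0.000231, n = 7 per group). Both are also known targets of the lipid sensor PPAR alpha. In contrast to the clock genes, their lowest diabetic animals (13.92 and 10.27) lay above their highest controls (12.72 and 9.31).

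Inputs that act on Per1 were examined as well. Of 12 glucocorticoid-responsive genes, Per1 among them, 11 were measured and 0 were called in either direction by limma, with 1 at an unadjusted p under 0.05 (median difference 0.05). The smallest p belonged to Fkbp5, a chaperone of the glucocorticoid receptor (0.30 ± 0.13, SE, n = 7 per group, limma adjusted p = 0.487), and Dusp1, a phosphatase (-0.23 ± 0.15, adjusted p = 0.703). Of 13 immediate early genes 12 were measured and 0 called, with 1 at an unadjusted p under 0.05 (median difference -0.15). Fosl1, a partner of Jun, had the smallest p (-0.51 ± 0.19, limma adjusted p = 0.331, n = 7 per group), at a mean signal of 6.77 near the offset, followed by Ier2 (-0.24 ± 0.15, adjusted p = 0.685).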

How the data were processed

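Probe set intensity values were deposited on a linear scale, 1 per probe set and array. Per the submitters' processing notes the tools were MAS5, RMA, affy and limma, and the step each one served is not stated there. Here each array was scaled to a trimmed mean of 500 (trimming 2% from either tail), an offset of 50 was applied before log2, and the arrays were quantile normalised. This forces equal distributions on the arrays, so a shift of most genes would be lost. The 57 control probe sets were left out. Two-sided tests of the group term came from limma 3.58.1 under R 4.3.3 (lmFit, eBayes). The Benjamini-Hochberg adjustment covered 31042 probe sets, with calls at 0.05.

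A gene with several probe sets was represented in pairs and lists by its brightest. Deviations from group means were correlated over 14 arrays, with 100000 shuffles within groups (numpy 2.4.6, two-sided, adjusted over 45 pairs), and within each group by all 5040 orders of its 7 animals. With class means removed, all shuffles within group and class were used. Promoter sequences are from RefSeq (assembly GRCr8), 250 bases before to 50 after the start. The 5 motifs were searched on both strands, and no match overlaps another in the promoters shown. The genes named are the 10 members, called genes of each list or otherwise its 2 smallest p, and the 5 genes most like Bmal1 and Dbp; others are said to be outside this rule. The members and lists were chosen with earlier results of these data known. The correlation with atrial markers was added after the data were seen. The limma fit and the pair test were tested on simulated data.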

Additional observations from a re-analysis of the deposited data

Results flagged for a closer look

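In 6 of 36 groups of 7 animals (18 probe sets in 2 groups) 1 animal stood apart, its gap to the nearest divided by the range being over Dixon's critical value. That value is set for about 1 in 20 independent groups of normally distributed values. The groups here share animals, and the share over all probe sets is not given, so the count is a description only. Control replicate 3 was lowest in Bmal1 (7.84, the next control 9.01) and highest in Dbp (11.21, the next 9.17). Control replicate 7 was lowest in the brighter Cry2 probe set (8.62, next 9.08). Control replicate 5 was highest in the dimmer Per3 probe set (7.57, next 6.31). Diabetic replicate 7 was highest in the second Clock probe set (10.25, next 9.64), and diabetic replicate 5 lowest in the dimmer Cry2 probe set (6.25, next 7.07).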

How the results depend on the processing

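The count of clock gene probe sets passing limma was 0 under 25 other settings of the fit (normalisation, offset, block, covariate, weights, prior, brighter probe sets, arrays left out). An exact rank-sum test also called 0, but it called 372 probe sets on the array, as many as did not overlap between the groups. As all 18 overlapped, that 0 was fixed in advance and says nothing about stability. The setting with only the brighter probe sets holds 13 of the 18. The fits within single classes, the other 3 settings, called 0 probe sets on the whole array and say nothing about stability. Of 499 differences under the 28 settings 43 had the other sign and 0 were called. Without the 3 dimmest arrays 3 of the 18 had an unadjusted p under 0.05 (smallest limma adjusted p = 0.23). By the brightest probe sets the differences were then 0.82 for Per2, 0.65 for Per3, 0.65 for Nr1d1, 0.64 for Dbp and 0.50 for Per1. They were 0.47 for Nr1d2, 0.23 for Clock, 0.03 for Cry2, -0.31 for Cry1 and -0.57 for Bmal1. With the replicate block 0 were called, with 0 at an unadjusted p under 0.05.

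The count of correlated pairs, 5 of 45, depended on the setting. It was 1 with array medians subtracted, 2 with class means removed (neither among the 5), 10 with the beta-actin ratio as a covariate, 0 without the 3 dimmest arrays and 2 with the dimmest probe set of each gene. Leaving out single arrays gave 1 (without control replicate 3) to 7, with 2 without control replicate 1 or diabetic replicate 1, and 3 without control replicates 6 or 7 or diabetic replicates 3 or 5. With the replicate block, which pairs animals by number, 0 passed the exact test over 7 differences, with 10 at an unadjusted p under 0.05. The numbers do not pair the animals: deviations of same-numbered arrays correlated by -0.16 to 0.09. The r of Bmal1 with Dbp passed with class means removed (-0.87), with the beta-actin ratio (-0.85) and as rho (-0.71), ran from -0.88 to -0.49 with single arrays left out, and was -0.53 without the 3 dimmest. That of Dbp with Per3 passed with the beta-actin ratio (0.74), ran from 0.40 to 0.78, and was 0.58 with class means removed, 0.43 as rho, 0.29 without the 3 dimmest arrays and 0.08 with the dimmest probe sets. That of Bmal1 with Nr1d1 ran from -0.72 to -0.26 and with Clock from 0.25 to 0.40. The causes were not tested. No hour of sampling was at hand, and signals of Per3 and of the dimmer probe sets near the offset limit what can be seen of them.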

Other observations

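Of the 13 other clock genes measured, 7 had a positive r with Bmal1 over single animals and 6 a negative one. The genes below were named after their values were seen. Of 8136 genes ranked, the lowest r with Bmal1 was that of Tef, a relative of Dbp that binds the same D-box (-0.89, and -0.78 without control replicate 3). Bhlhe41, the clock repressor DEC2, had -0.80 (-0.72). Klf9, from the glucocorticoid-responsive list, had -0.77 (-0.45). The other 2 of the lowest 5 were Ctbp2 and Ccdc88c (-0.80 and -0.79). Tef went with Dbp (r = 0.82), while Npas2, a stand-in for CLOCK, had 0.58 with Bmal1 and -0.69 with Dbp. These last 3 r include control replicate 3, the lowest animal in Bmal1 and the highest in Dbp. These values are descriptions over 14 arrays that share the same animals, with no p, because the genes were picked for them. None of Tef, Bhlhe41, Klf9 and Npas2 was called between the groups (limma adjusted p = 0.919, 0.873, 0.961 and 0.930, n = 7 per group).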
